A study of Mus musculus with 6 samples.

Results

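The genes that make microRNAs and carry out their silencing were followed in MIN6 cells, a mouse insulinoma line used as a model of the β cell. The 10 genes are *Drosha*, *Dgcr8*, *Xpo5*, *Dicer1*, *Tarbp2*, *Prkra*, *Ago1*, *Ago2*, *Ago3* and *Ago4*, listed by name for their role in the pathway and matched by Ensembl identifier. All 10 were found among the 53808 mouse genes listed, and all 10 were among the 17823 genes that passed the filter of a mean of at least 0.5 TPM (reads per length, scaled to 1000000 in each clone). SND1, the targeted protein, is a known subunit of the silencing complex. The comparison asked how the other genes of that machinery stood when *Snd1* was disrupted.

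The 6 clonal lines compared were 3 control and 3 *Snd1* KO, with 1 mRNA library each. All of them express Cas9, were infected with lentivirus that carries a gRNA, were selected with puromycin and were grown from a single cell, steps that both groups share. The gRNA aims at intron 2 of *Snd1* in the control clones and at exon 2 in *Snd1* KO clones. For exon 2 the paper lists 2 gRNAs, and its sequencing sets its *Snd1* KO lines 1 and 2 under 1 of them and line 3 under the other. Each library is 1 clone, and p-values therefore measure the spread between clones.

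A microRNA begins as a hairpin in a longer nuclear transcript. Drosha cuts the hairpin out with its partner DGCR8, exportin 5 (*Xpo5*) carries it to the cytoplasm, and Dicer (*Dicer1*), bound by TRBP (*Tarbp2*) or PACT (*Prkra*), cuts it to a short duplex. An Argonaute protein then keeps one strand and pairs it with target mRNAs through the seed, bases 2 to 8 of the microRNA, and of the mouse Argonautes AGO2 is the one best known to slice its target.

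The genes *Dgcr8*, *Xpo5* and *Drosha* themselves hold annotated microRNA hairpins. In *Dgcr8* (minus strand of chromosome 16, GRCm38) the hairpin of miR-1306 lies in an exon and in coding sequence, from 18284239 to 18284317, and that of miR-3618 (*Gm24572*) lies in an exon outside coding sequence, from 18284550 to 18284637. Cleavage of *Dgcr8* mRNA at such hairpins by Drosha is a known way in which the complex limits its own level. The hairpin of miR-693 lies in an intron of *Xpo5*, on chromosome 17 from 46231531 to 46231619, and *Gm47288* lies in an intron of *Drosha*, on chromosome 15 from 12842096 to 12842235. The mature sequences of the first 3, from RefSeq (GRCm38.p6), are shown because these are the products that the machinery would cut from its own transcripts, with the seed in capitals:
mmu-miR-1306-5p: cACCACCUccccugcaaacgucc
mmu-miR-1306-3p: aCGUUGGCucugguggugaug
mmu-miR-3618-5p: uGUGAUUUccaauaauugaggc
mmu-miR-3618-3p: cUACAUUAaugaaaagagcaau
mmu-miR-693-5p: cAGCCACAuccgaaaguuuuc
mmu-miR-693-3p: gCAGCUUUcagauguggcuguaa
The 6 mature sequences have different seeds. Libraries of mRNA do not measure mature microRNAs, and the hairpin genes inside *Dgcr8* and *Drosha* had 0 reads in every clone, and that in *Xpo5* had 1 read in *Snd1* KO 3 and 0 in the other clones.

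Reads recovered from the TPM steps gave 25118752 to 32170120 reads on genes per clone, and the 10 genes had 169 to 6960 reads in a clone. These sums are above the number of reads per library that the paper gives. Whether the 2 mates of a pair were counted separately was not tested. Counting errors given here take each recovered read as 1 count, and would be too small if mates were counted separately. *Snd1* had 113, 119 and 112 TPM in controls 1, 2 and 3, against 14.7, 57.1 and 19.9 TPM in *Snd1* KO lines 1, 2 and 3. *Snd1* KO 2 thus kept 49.8% of the control mean of the mRNA, which does not measure the protein. The paper chose its *Snd1* KO clones as deficient in SND1 protein by western blot, and by sequencing it reports indels that disrupt the protein. Control 3 stood nearer to *Snd1* KO clones 2 and 3 than to the other controls over all genes (Pearson correlation across 11368 genes, 0.949 and 0.955 against 0.943 and 0.936), and with *Snd1* KO 1 it received the lowest quality weights (0.279 and 0.286). Of 8 β cell markers, 7 had over 3 reads in every clone, *Ucn3* being the exception. Of 11 markers of other cell types, 2 had over 3 reads in every clone and 4 had at most 3 in every clone, among which *Cpa1* and *Prss1* had 0 reads in every clone. The 11 summed to 177 to 316 TPM over the controls and 58.7 to 1105 TPM over the *Snd1* KO lines, most of it glucagon (*Gcg*) by group mean. Its part in the results was not tested. In bulk RNA, fewer cells of a type and less RNA per cell cannot be told apart.

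None of the 10 genes was called different in *Snd1* KO clones by both criteria, at least 2-fold with an adjusted p-value under 0.05 (limma on log2(TPM + 1), Benjamini-Hochberg over all genes tested). Over all genes tested 0.00561% were called, a single gene, the small nucleolar RNA *Gm24966*. The paper, also with limits on fold change and false discovery rate, reports far more differentially expressed genes and followed several by qPCR. Why the counts differ was not tested, and few calls here do not show that few genes differed. At an unadjusted p-value under 0.05 there was 1 of the 10, *Ago4*, where 7.96% of all genes tested passed that limit. The pair *Ago4* and *Dgcr8* had all 3 *Snd1* KO values above all 3 control values, 2 of 10 where 9.69% of all genes tested did, and 0 of 10 had all of them below where 4.03% did. The other 8 overlapped between the groups. Group means were higher in *Snd1* KO clones for 5 genes and lower for 5, with a median log2 fold change of 0.0085 beside 0.044 over all genes tested.

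**Figure D1:**
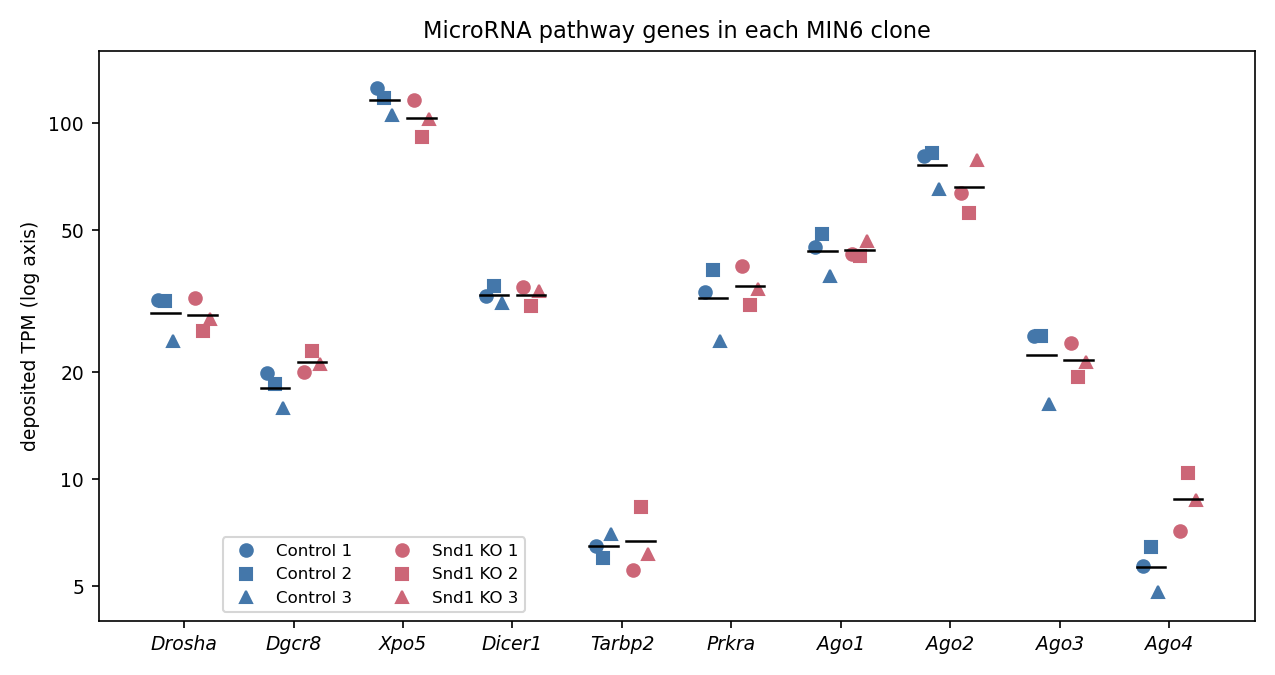
Deposited TPM (log axis) of the 10 genes in each of the 6 clones, with blue symbols for control clones 1 to 3, red symbols for Snd1 KO clones 1 to 3 and a black bar at each group mean. Ago4 and Dgcr8 are the 2 genes whose red symbols all lie above the blue ones, by a narrow margin for Dgcr8 (Control 1 at 19.89 TPM, Snd1 KO 1 at 19.95 TPM).

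*Drosha* (ENSMUSG00000022191, plus strand of chromosome 15 from 12824815 to 12935291), which encodes the nuclear RNase III enzyme, had 31.9, 31.6 and 24.4 TPM in controls 1, 2 and 3, against 32.2, 26.1 and 28.2 TPM in *Snd1* KO lines 1, 2 and 3. Control 3 was lowest, and the groups overlapped. The means were 29.3 ± 4.22 and 28.8 ± 3.12 TPM (SD, n = 3 each), and the difference on the log2 scale was −0.018 (95% interval −0.37 to 0.34; limma, adjusted p = 0.986).

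*Dgcr8* (ENSMUSG00000022718, minus strand of chromosome 16 from 18253948 to 18289246) encodes the RNA-binding partner of Drosha. Controls 1, 2 and 3 had 19.9, 18.6 and 15.8 TPM (1914, 1696 and 1314 reads). The *Snd1* KO lines 1, 2 and 3 had 19.95, 22.9 and 21.1 TPM (1729, 1913 and 1888 reads). The groups were separate but nearly touched at Control 1 and *Snd1* KO 1, whose gap was smaller than the counting error of 2.29% at the highest read count. Its means were 18.1 ± 2.08 and 21.3 ± 1.49 TPM (SD, n = 3 each), and the second was 118% of the first. The log2 fold change was 0.23 (standard error 0.13, 95% interval −0.086 to 0.54, adjusted p = 0.666, limma), and the exact two-sided permutation test gave p = 0.1, the smallest that 3 clones against 3 allow. Its transcripts overlap *Trmt2a* on the opposite strand (2014 to 2450 reads per clone) and the annotated protein-coding gene *Gm49776* on the same strand, which was not analysed here. Its values gave whole reads with a length of 16794 bases, compared with 17210 for all annotated transcripts summed, and whether the counting used strand is not given in the sources used here.

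Within each clone, *Drosha* was set against *Dgcr8* on TPM in which an exonic base counts 1 time however many transcripts share it, which allows levels of different genes to be compared. The ratio was 1.90, 2.02 and 1.84 in control clones 1 to 3 and 1.92, 1.35 and 1.59 in *Snd1* KO clones 1 to 3. *Snd1* KO 2 and *Snd1* KO 3 lay below every control, whereas *Snd1* KO 1 lay within the control range.

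*Xpo5* (ENSMUSG00000067150, plus strand of chromosome 17 from 46202782 to 46243598), the export receptor of the hairpins, had the highest deposited TPM of the 10 genes. It had 126, 118 and 106 TPM in controls 1, 2 and 3, against 116, 91.4 and 103 TPM in *Snd1* KO lines 1, 2 and 3. *Snd1* KO 2 was lowest, and Control 3 lay between the *Snd1* KO clones. The means were 117 ± 10.3 and 103 ± 12.3 TPM (SD, n = 3 each), and the difference on the log2 scale was −0.18 (95% interval −0.48 to 0.13; limma, adjusted p = 0.735; exact permutation p = 0.2). Its value gave whole reads with a length of 3709 bases, compared with 10363 bases for all annotated transcripts summed and 6859 bases with each annotated exonic base counted once. Where this length comes from was not tested, and it sets the level of *Xpo5* relative to other genes but not its comparison between clones.

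*Dicer1* (ENSMUSG00000041415, minus strand of chromosome 12 from 104687742 to 104751952), which encodes the cytoplasmic RNase III enzyme, varied least. It had 32.8, 34.97 and 31.2 TPM in controls 1, 2 and 3, against 34.6, 30.6 and 33.7 TPM in *Snd1* KO lines 1, 2 and 3. The highest clone had 1.14 times the TPM of the lowest, both groups averaged 33.0 TPM (SD 1.90 and 2.11, n = 3 each), and the log2 fold change was −0.00078 (95% interval −0.26 to 0.26, adjusted p = 0.999, limma). Relative to *Drosha*, *Dicer1* stood at 0.62, 0.67 and 0.77 in control clones 1 to 3 and at 0.65, 0.71 and 0.72 in *Snd1* KO clones 1 to 3 with each exonic base counted once, and these ranges overlapped.

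The double-stranded RNA binding partners of Dicer differed more between clones than between groups. *Tarbp2* (ENSMUSG00000023051, plus strand of chromosome 15 from 102518192 to 102523676) had 6.48, 5.99 and 7.01 TPM in controls 1, 2 and 3, against 5.56, 8.34 and 6.15 TPM in *Snd1* KO lines 1, 2 and 3. Its lowest and highest values were both in *Snd1* KO clones, and the log2 fold change was 0.021 (95% interval −0.42 to 0.47, adjusted p = 0.987, limma). *Prkra* (ENSMUSG00000002731, minus strand of chromosome 2 from 76629898 to 76648015), whose product PACT also activates the kinase PKR, had 33.5, 38.7 and 24.5 TPM in controls 1, 2 and 3, against 39.8, 31.0 and 34.1 TPM in *Snd1* KO lines 1, 2 and 3. Control 3 was lowest, and the log2 fold change was 0.13 (95% interval −0.32 to 0.59, adjusted p = 0.873, limma). In 6 of 6 clones *Tarbp2* and *Prkra* lay on opposite sides of their own means, by as little as 0.01 on the log2 scale in Control 1, as the plot of clone deviations shows. With each exonic base counted once, *Tarbp2* over *Prkra* was 0.55, 0.44 and 0.81 in control clones 1 to 3 and 0.39, 0.76 and 0.51 in *Snd1* KO clones 1 to 3, so that Control 3 and *Snd1* KO 2 were the high clones.

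Of the 4 Argonaute genes, *Ago1* and *Ago3* showed the smallest differences. *Ago1* (ENSMUSG00000041530, minus strand of chromosome 4 from 126435012 to 126468583) had 44.9, 48.7 and 37.3 TPM in controls 1, 2 and 3, against 43.0, 42.3 and 46.6 TPM in *Snd1* KO lines 1, 2 and 3. All *Snd1* KO values fell within the control range, and the log2 fold change was 0.018 (95% interval −0.29 to 0.33, adjusted p = 0.982, limma). *Ago3* (ENSMUSG00000028842, minus strand of chromosome 4 from 126331704 to 126429556) had 25.3, 25.2 and 16.3 TPM in controls 1, 2 and 3, against 24.2, 19.4 and 21.3 TPM in *Snd1* KO lines 1, 2 and 3. Here too the *Snd1* KO values fell within the control range, which Control 3 widened, and the log2 fold change was −0.021 (95% interval −0.49 to 0.45, adjusted p = 0.988, limma).

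*Ago2* (ENSMUSG00000036698, minus strand of chromosome 15 from 73095844 to 73184935), the slicing Argonaute, had 80.8, 82.4 and 65.4 TPM in controls 1, 2 and 3, against 63.7, 56.1 and 78.7 TPM in *Snd1* KO lines 1, 2 and 3. *Snd1* KO 1 and *Snd1* KO 2 lay below every control, and *Snd1* KO 3 lay above Control 3. The means were 76.2 ± 9.36 and 66.2 ± 11.5 TPM (SD, n = 3 each), or 86.8% of control, and the difference on the log2 scale was −0.21 (95% interval −0.59 to 0.18, adjusted p = 0.754, limma; exact permutation p = 0.2). It overlaps *Chrac1* on the opposite strand, which had 423 to 748 reads per clone beside 4190 to 6960 for *Ago2*.

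*Ago4* (ENSMUSG00000042500, minus strand of chromosome 4 from 126489541 to 126533472), an Argonaute not known to slice ordinary targets, had the largest difference of the 10. Controls 1, 2 and 3 had 5.69, 6.46 and 4.80 TPM (232, 250 and 169 reads). The *Snd1* KO lines 1, 2 and 3 had 7.17, 10.4 and 8.76 TPM (263, 368 and 332 reads). Each *Snd1* KO clone was above each control, with Control 2 and *Snd1* KO 1 the nearest pair. The means were 5.65 ± 0.831 and 8.78 ± 1.62 TPM (SD, n = 3 each), so that *Snd1* KO clones averaged 155% of control. The log2 fold change was 0.55 (standard error 0.19, 95% interval 0.096 to 1.004, unadjusted p = 0.0245, adjusted p = 0.585, limma; exact permutation p = 0.1). It passed an adjusted p-value under 0.05 with clones weighted by quality (log2 fold change 0.49, adjusted p = 0.0448), where 12.1% of all genes tested also passed at any fold and 5.02% passed with at least 2-fold, a limit that *Ago4* did not reach. Over all alternatives its adjusted p ranged from 0.0448 to 0.986 and its log2 fold change from 0.43 to 0.67. The counting error of *Ago4* was 7.69% at its lowest read count, the largest of the 10 genes. The processed pseudogenes within its span, *Gm12934* and *Gm12935*, had at most 1 read in a clone.

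**Figure D2:**
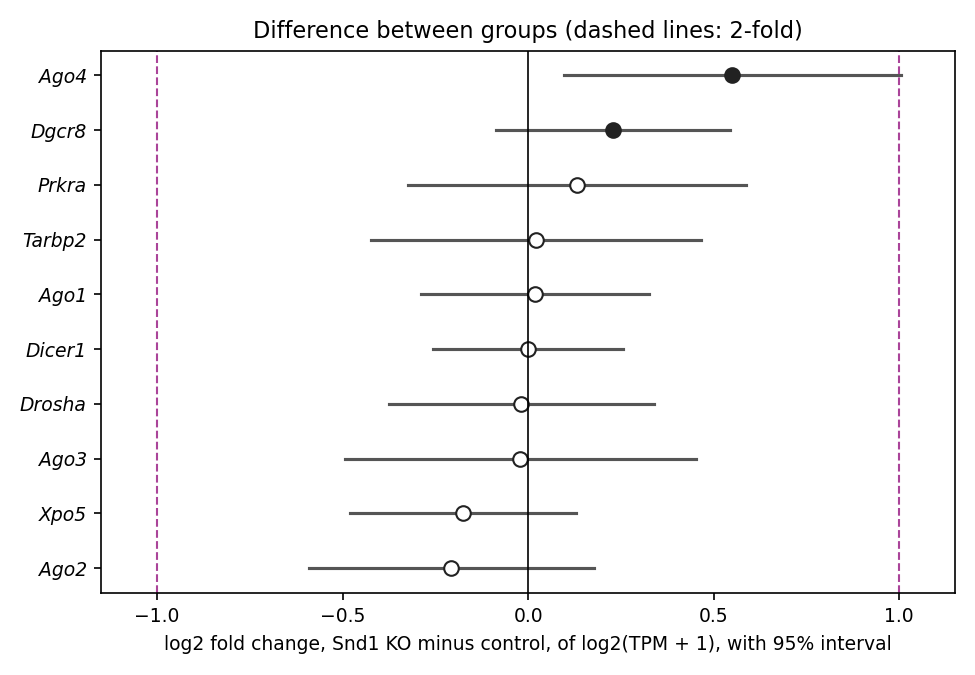
Log2 fold change of each gene (Snd1 KO minus control, on log2(TPM + 1)) with its 95% interval from limma, where filled circles mark genes whose groups do not overlap and dashed lines mark 2-fold. The interval of Ago4 lies above 0 and reaches the 2-fold line at 1.004, and the other 9 intervals include 0 and stay inside 2-fold.

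As ratios of TPM + 1, the 95% interval lay within 2-fold for 9 of the 10 genes, between 0.664 and 1.502 times control. That of *Ago4* ran from 1.07 to 2.01 times control on the same scale, which understates changes of low genes. With a pseudocount of 0.1 its log2 fold change was 0.62 (standard error 0.21). A p-value that misses the threshold does not show that the groups were equal. The mRNA of the targeted gene, *Snd1*, averaged 26.7% of control and was not called either (log2 fold change −2.11; limma, adjusted p = 0.511).

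As shares of the 4 Argonautes together (TPM with each exonic base counted once), *Ago2* and *Ago1* made up most of the pool in every clone. *Ago2* held 44.0%, 42.9% and 44.8% in control clones 1 to 3 and 38.9%, 36.6% and 43.0% in *Snd1* KO clones 1 to 3. *Ago1* held 38.6% to 40.4% in control and 40.3% to 43.7% in *Snd1* KO clones, and exceeded *Ago2* in *Snd1* KO 1 and *Snd1* KO 2 only. *Ago3* held 11.7% to 14.5% and 12.2% to 15.5%, respectively. The share of *Ago4* was 2.96%, 3.21% and 3.14% in the controls, against 4.18%, 6.49% and 4.57% in the *Snd1* KO lines, and was the one share whose groups did not overlap. The 4 genes summed to 119 ± 16.3 TPM for control and 114 ± 10.7 TPM for *Snd1* KO (SD, n = 3 each), with overlapping ranges.

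**Figure D3:**
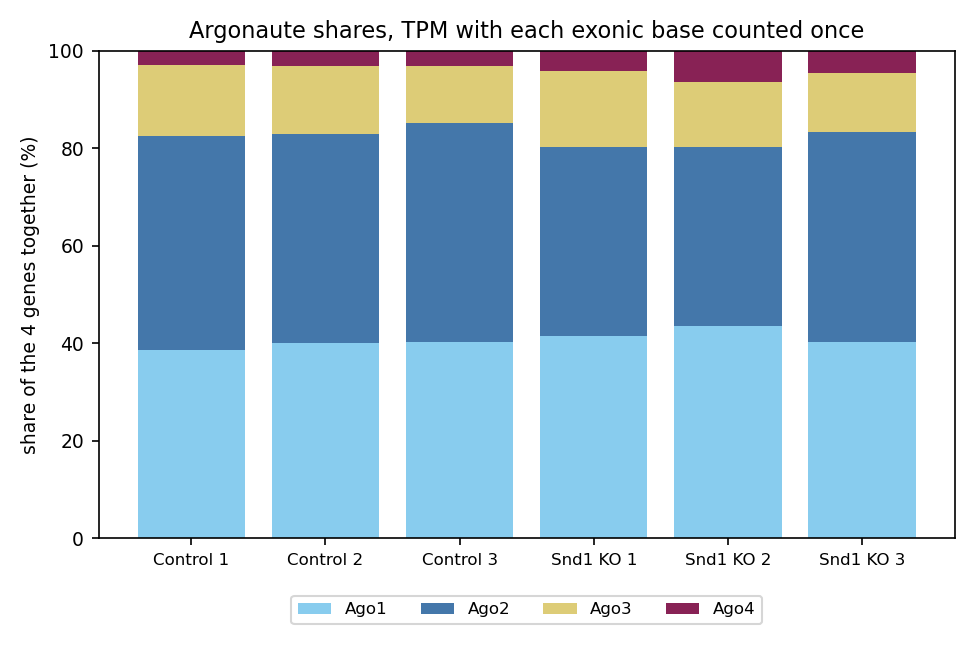
Share (%) of Ago1, Ago2, Ago3 and Ago4 in the sum of the 4 genes, from TPM with each exonic base counted once, as 1 stacked bar per clone. The top segment, Ago4, spans 2.96% to 3.21% in the control clones and 4.18% to 6.49% in Snd1 KO clones.

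By level over the 6 clones, again with each exonic base counted once, the place of *Xpo5* depended on its length, with a mean of 70.2 TPM at 3709 bases, above every value of *Ago2*, and 38.0 TPM at 6859 bases. Of the others, *Ago2*, *Drosha* and *Ago1* led with means of 48.7, 48.1 and 47.4 TPM and ranges that overlapped, so their order was not set. *Dicer1* (30.4 to 34.7 TPM) lay below all 3. *Dgcr8* (22.1 to 31.8 TPM) overlapped *Dicer1* and *Prkra* (17.9 to 29.3 TPM), and *Ago3* (11.7 to 18.1 TPM) overlapped *Prkra* and *Tarbp2* (11.5 to 17.1 TPM). *Ago4*, at 3.15 to 6.78 TPM, was below all others in every clone. Among all genes tested, *Ago2* stood at percentile 79.1 and *Ago4* at percentile 35.4.

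The clones differed from each other in ways that the groups did not follow. Control 3 held the lowest value of 6 of the 10 genes (*Drosha*, *Dgcr8*, *Prkra*, *Ago1*, *Ago3* and *Ago4*), where it held the lowest value of 28.9% of all genes tested. Its median deviation from the mean of the 6 clones was −0.23 on the log2 scale over the 10 genes and −0.11 over all genes tested. *Snd1* KO 2 was lowest for *Xpo5*, *Dicer1* and *Ago2* and highest for *Dgcr8*, *Tarbp2* and *Ago4*. Mitochondrial genes held 9.17% of TPM in Control 3 and 13.6% to 16.4% in the other 5 clones, and the part of this in the low values of Control 3 was not tested. Without Control 3, *Ago4* and *Dgcr8* were still higher in every *Snd1* KO clone, 2 of 10 where 17.2% of all genes were. *Ago2*, *Ago3* and *Xpo5* then had every *Snd1* KO value below both remaining controls, 3 of 10 where 17.8% of all genes were, with log2 fold changes of −0.31, −0.22 and −0.24 (adjusted p = 0.468, 0.507 and 0.477, limma).

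**Figure D4:**
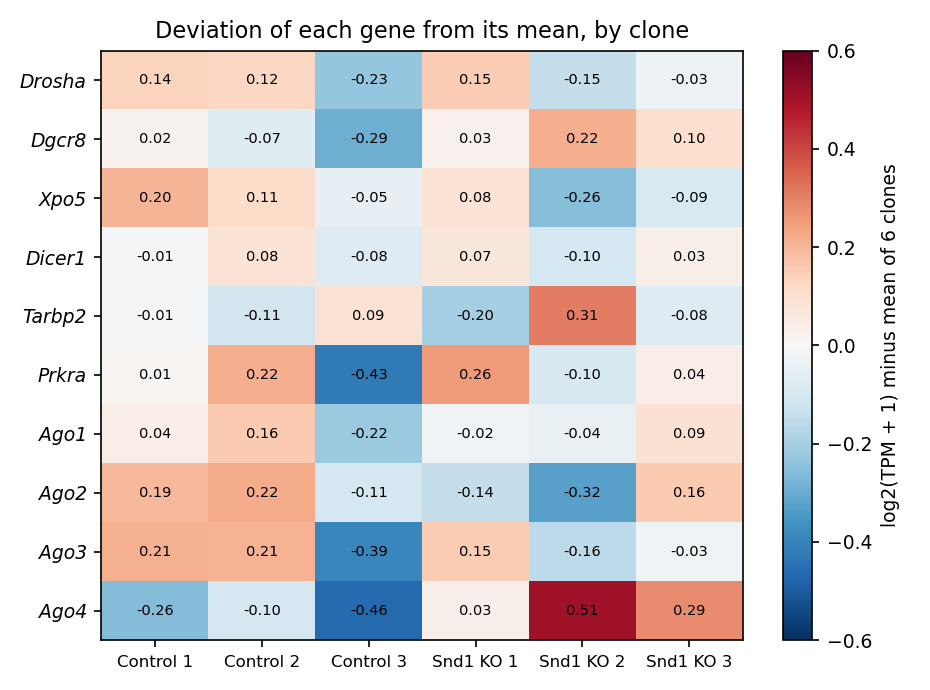
Deviation of log2(TPM + 1) of each gene from its mean over the 6 clones, with red for higher and blue for lower and the value printed in each cell. The Control 3 column is negative in every row but Tarbp2, and the row of Ago4 runs from −0.46 in Control 3 to 0.51 in Snd1 KO 2.

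For *Ago4*, the 3 genes with the most similar profile over the 6 clones were *9030612E09Rik*, *Luc7l3* and *Pnisr*, among 11368 genes averaging 5 TPM or more. Their root mean square differences from it in centred log2(TPM + 1) were 0.073, 0.073 and 0.086. *Luc7l3* had 41.1, 40.5 and 33.1 TPM in controls 1, 2 and 3, against 46.6, 65.6 and 51.1 TPM in *Snd1* KO lines 1, 2 and 3.

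The genes around the core machinery were counted in lists by role. Nuclear partners of primary transcript cleavage, such as the helicase *Ddx5*, were higher in every *Snd1* KO clone for 6 of 15 genes (9.69% of all genes tested) and lower for 0 (4.03%). Their median log2 fold change was 0.25, and 13 of 15 values lay above 0 (57.3% of all genes tested). None of the 15 was called, and 3 had an unadjusted p-value under 0.05 (7.96% of all genes tested). Control 3 held the lowest value of 10 of the 15 (28.9% of all genes tested), and the part of that clone in these counts was not tested beyond leaving it out. *Hnrnpa2b1*, an RNA-binding protein that reads marked primary transcripts, had 264, 254 and 227 TPM in controls 1, 2 and 3, against 340, 366 and 335 TPM in *Snd1* KO lines 1, 2 and 3, and its log2 fold change was 0.48 ± 0.11 (SE; limma, adjusted p = 0.537). *Ddx5* had 415, 400 and 368 TPM in the controls, against 447, 579 and 529 TPM in the *Snd1* KO lines, and its log2 fold change was 0.39 (limma, adjusted p = 0.585). The scaffold genes *Safb* and *Safb2* had log2 fold changes of 0.32 and 0.31 (adjusted p = 0.598 and 0.607, limma). Without *Snd1* KO 1 the count of higher genes was 10 of 15, where 22.6% of all genes tested were. Without Control 3 it was 7 of 15, where 17.2% were, and without each of the other clones it was 6 to 8, where 12.0% to 14.6% were.

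Downstream of the Argonautes, deadenylation and decapping genes, which shorten and decap the mRNAs that microRNAs bind, had 6 of 24 higher and 1 lower in every *Snd1* KO clone (9.69% and 4.03% of all genes tested), a median of 0.064 and 0 genes called (2 at an unadjusted p-value under 0.05, where 7.96% of all genes passed). Control 3 held the lowest value of 14 of the 24. *Dcp1b*, a decapping cofactor, had 3.53, 3.24 and 4.25 TPM in the controls, against 5.50, 6.11 and 5.23 TPM in the *Snd1* KO lines, and its log2 fold change was 0.50 (limma, adjusted p = 0.585). The deadenylase genes *Pan2*, *Cnot6l* and *Pan3* had log2 fold changes of 0.48, 0.39 and 0.37 (adjusted p = 0.607, 0.583 and 0.607, limma). Higher genes numbered 10 of 24 without *Snd1* KO 1 (22.6% of all genes tested), 6 of 24 without Control 3 (17.2%), and 6 to 9 without each of the other clones (12.0% to 14.6%).

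The remaining lists lay near the median of all genes, and their counts stand beside 9.69% of all genes tested that were higher and 4.03% that were lower in every *Snd1* KO clone. Cap binding and RAN transport genes had 1 of 7 higher in every *Snd1* KO clone (*Srrt*, 0.14) and a median of 0.047, and chaperones and strand remodelling genes had 1 of 10 (*Ptges3*, an HSP90 cochaperone, 0.33) and a median of 0.013. Of 12 Argonaute-bound effectors, 10 passed the filter, none separated the groups, the median was −0.015, and the most abundant, *Fxr2*, had a log2 fold change of −0.12. Genes of microRNA tailing and turnover had 0 of 12 that separated the groups and a median of −0.0015, with the exonuclease *Xrn2* the most abundant (0.016). Other double-stranded RNA binding proteins had 1 of 8 higher (*Strbp*, 0.38) and a median of 0.064. The PIWI genes, the germ cell branch of the Argonaute family, were at or near the floor, with 0 to 1 reads for *Piwil1*, 1 to 7 for *Piwil2* and 0 to 2 for *Piwil4*. In these lists 0 genes were called, and 1 chaperone (*Ptges3*) and 1 double-stranded RNA binding gene (*Strbp*) had an unadjusted p-value under 0.05 (7.96% of all genes tested).

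**Figure D5:**
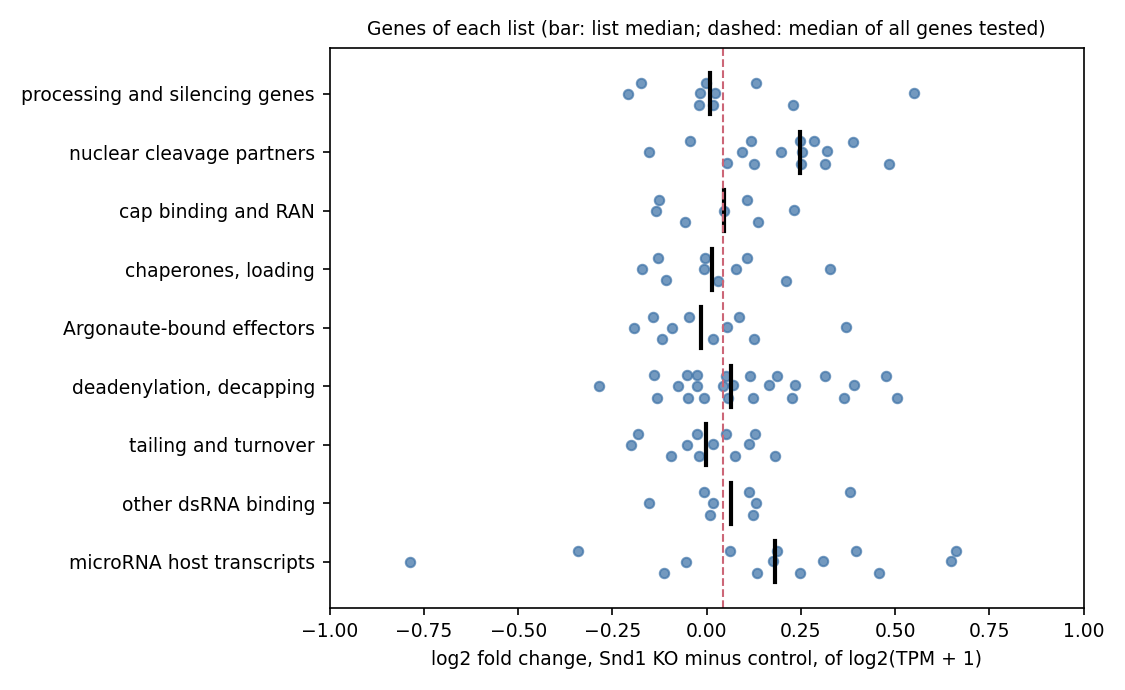
Log2 fold change (Snd1 KO minus control) of each gene of 9 lists that passed the filter, 1 point per gene, with a bar at the median of the list and a dashed line at 0.044, the median of all genes tested. The 15 nuclear partners center at 0.25 and the 10 processing and silencing genes at 0.0085.

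Among 18 transcripts that carry microRNAs, 14 passed the filter, 2 were higher in every *Snd1* KO clone and 0 were lower (9.69% and 4.03% of all genes tested), with a median of 0.18 and 0 called. An unadjusted p-value under 0.05 was reached by 3 (7.96% of all genes), of which *Ptprn*, a secretory granule gene, had the largest difference of the list. It had 1461, 1626 and 1193 TPM in the controls, against 1238, 539 and 827 TPM in the *Snd1* KO lines, with Control 3 below *Snd1* KO 1, and its log2 fold change was −0.79 (limma, adjusted p = 0.607). Both that separated the groups carry microRNAs of 1 family. The list was chosen with earlier results of these data known, and whether this sharing is more than chance was not tested. *Dleu2*, a noncoding transcript with miR-15a and miR-16, had 7.96, 8.15 and 6.60 TPM in the controls, against 9.89, 16.5 and 11.5 TPM in the *Snd1* KO lines, and its log2 fold change was 0.65 ± 0.21 (SE; limma, adjusted p = 0.581). *Smc4*, a condensin gene with miR-15b and miR-16, had 188, 171 and 154 TPM in the controls, against 201, 228 and 206 TPM in the *Snd1* KO lines, and its log2 fold change was 0.31 (limma, adjusted p = 0.605). The mature 5′ arms, from RefSeq (GRCm38.p6), are shown for the seed they share, in capitals:
mmu-miR-15a-5p: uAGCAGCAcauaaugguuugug
mmu-miR-15b-5p: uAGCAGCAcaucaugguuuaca
mmu-miR-16-5p: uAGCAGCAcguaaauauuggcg
Reads on these 4 hairpins were at most 2 in a clone, at or under the floor of 3 reads, so the values describe the host transcripts and not the microRNAs.

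Annotated microRNA genes as a class had too few reads to follow. Of 2207 listed, 485 had a read in any clone, 354 passed the TPM filter, and only 27 of these had over 3 reads in every clone. None of the 354 was called, and 28 had an unadjusted p-value under 0.05 (7.96% of all genes tested). The 4 with the largest separated differences rested on 0 to 4 reads in a clone, with 0 reads in every control and 1, 2 and 4 in *Snd1* KO clones for *Mir7655*, for example, and for *Mir5709*, *Mir1191b* and *Gm27409* both groups were at or under the floor. Of the 354, 18 were higher and 3 lower in every *Snd1* KO clone (9.69% and 4.03% of all genes tested), 235 had a log2 fold change above 0 (57.3%) and the median was 0.44, but 296 had a clone at 0 reads and 229 had at most 3 reads in every clone. Of the 27, 2 were lower in every *Snd1* KO clone, 0 were higher, and the median log2 fold change was −0.021, and 7 of the 27 had an unadjusted p-value under 0.05, beside 4.03% lower, 9.69% higher and 7.96% under that limit among all genes tested. Reads on microRNA genes summed to 17447 in Control 3 and 4612 to 6758 in the other clones, and *Gm23935* held 72.1% of them in Control 3 and 56.1% to 62.2% in the other clones. Control 3 was also highest for *Mir6236* (2587 reads, against 567 to 1004 in the other clones) and *Gm24187* (1189 reads, against 222 to 430). The sum thus rests mostly on a few rows, and what RNA these rows collect was not tested.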

How the data were processed

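mRNA of 6 MIN6 clones was sequenced as paired ends, and the authors deposited TPM per gene. The labels name FastQC, Trimmomatic, HISAT2 and HTSeq among the tools, with the build mm10; roles, versions and strand are not given in the sources used here. GENCODE M21 (GRCm38) matched 53706 of 53808 genes, and 92 ERCC rows were left out.

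TPM times the summed exon length of all transcripts gave whole reads (within 0.01) for 93.3% to 93.8% of values and, after a length search for 1355 genes, 99.2% to 99.4%. These reads give depth between clones and cover counting error only, and whether they are mates or pairs was not settled.

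The groups were compared with limma 3.58.1 in R 4.3.3 (lmFit, eBayes with trend) on log2(TPM + 1), which understates changes of low genes, keeping genes that averaged 0.5 TPM or more, with Benjamini-Hochberg adjustment. Single genes had exact two-sided permutation tests. The fit was checked on simulations that held 200 changed genes. Groups came from the labels, and tables and plots were made in Python 3.11.15 (numpy 2.4.6; pandas 2.3.3; plots in matplotlib 3.10.9).

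The members and lists were chosen with earlier results of these data known. All members are named. Of each other list and of microRNA genes, up to 4 with separate groups are named in order of absolute log2 fold change, or else the most abundant, and for the member with the largest change the 3 genes with the most similar profile. *Gm24966*, *Cpa1*, *Prss1*, *Ucn3*, *Gcg*, *Ptprn*, *Gm23935*, *Mir6236* and *Gm24187* were named after their values were seen. Alternatives were pseudocounts, filters, normalizations, no trend, quality weights, a replicate block, leaving out each clone, each base counted once, voom and no minimum fold change. Leaving out clones, and counting each base once, for the counts of separated genes were added after the data were seen.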

Additional observations from a re-analysis of the deposited data

How the results depend on the processing

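The number of the 10 genes called was 0 under every alternative, and their median log2 fold change stayed between −0.069 and 0.060, within the spread between clones. Of 17823 genes tested 1 was called, and 0 were called with no filter, with no trend, with voom on recovered reads and with the replicate block (1803, 1410, 1551 and 1195 at an unadjusted p-value under 0.05, limma). Clone quality weights gave 895. Leaving out 1 clone gave 0 to 2 genes called, 0 to 3 of the 10 lower in every *Snd1* KO clone, 6 to 10 nuclear partners higher and 6 to 10 decay genes higher. The highest counts came without *Snd1* KO 2 for calls (*Snd1* and *Gm24966*), without Control 3 for the 10 genes and without *Snd1* KO 1 for the others. Directions of *Ago2*, *Ago4*, *Dgcr8* and *Xpo5* held in the 13 alternatives that can move a fold change (4 of the 17 leave it identical), and that of the other 6 genes turned in 20 of 78 values. With quantile normalization *Ago1* was −0.0044 and *Tarbp2* −0.059, with median ratio scaling they were −0.025 and −0.017, with quality weights *Ago1* was −0.019 and *Prkra* −0.064, and with each exonic base counted once *Dicer1* was 0.0062. Leaving out 1 clone, the log2 fold change ranged from −0.089 to 0.10 for *Ago1*, −0.22 to 0.081 for *Ago3*, −0.039 to 0.051 for *Dicer1*, −0.14 to 0.050 for *Drosha*, −0.13 to 0.13 for *Tarbp2* and −0.049 to 0.27 for *Prkra*. The cause was not tested. Clones with the same number share only that number, with correlations of deviations of 0.115, −0.199 and −0.108, so the replicate block is not a paired analysis. Not every clone correlated best with its own number.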
